A study of Mus musculus with 24 samples.

Results

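The WT-only H3K4me3 regions are the distinct H3K4me3 peaks of a Kmt2d wild-type mouse melanoma line that share no base with any H3K4me3 peak of a Kmt2d mutant melanoma line. They were chosen by that rule from the deposited peak lists, and 1224 of the 14666 WT peaks met it, which is 8.35% (95% interval 7.91–8.80%). The other 13442 WT peaks overlapped a mutant peak by at least 1 bp and are called shared here. The mutant list held 16438 H3K4me3 peaks, of which 3325 overlapped no WT peak.

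The mutant group is cell line 493, labelled Kmt2d mutant, and the WT group is cell line 971, labelled Kmt2d WT. Both lines were grown in DMEM/F12 medium with fetal bovine serum and received no treatment named in the labels, and the mutant allele is not given in the sources used here. Chromatin was profiled by CUT&RUN, in which an antibody directs a nuclease to its target so that the bound DNA is cut out and sequenced. The series holds 12 mutant and 10 WT peak lists with 197727 peaks in all, and 2 IgG samples whose signal was not analysed here. Every line and target had 1 library and every genotype had 1 line, so nothing below could be tested against replicates, and an effect of the genotype cannot be told apart from one of the line. Intervals are 95% Wilson intervals, or normal intervals for differences, and cover counting error only.

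H3K4me3 is the trimethylated form of lysine 4 on histone H3 and marks active and poised promoters, above all those rich in CpG dinucleotides. It is written by the COMPASS family of methyltransferases. Menin belongs to the KMT2A and KMT2B complexes, which act mostly at promoters. KMT2D and the demethylase UTX sit in a complex that acts mostly at enhancers, where monomethylation is the usual product. ARID1A and SMARCC1 are subunits of the SWI/SNF chromatin remodellers, with ARID1A defining canonical BAF, ARID2 and PBRM1 the PBAF form and BRD9 the non-canonical form. TFAP2A, TFAP2B and SOX10 are transcription factors of the neural crest and the pigment cell lineage.

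Among markers of the labelled cell type, 10 of 22 pigment cell genes had an H3K4me3 peak within 1 kb of a gene end in the mutant line. In the WT line 8 of 22 did. Mitf, Pmel, Mc1r, Pax3 and Erbb3 were among them in both lines, whereas Sox10 and Rab27a had such a peak in the mutant list and not in the WT list. Tyr, Tyrp1, Dct and Mlana had none in either list. Blood cell markers had 0 of 8 in both lines, keratinocyte markers 2 of 12, endothelial markers 2 of 10 and fibroblast markers 4 of 10. Muscle markers had 3 of 10 in the mutant line and 2 of 10 in the WT line. Over all 21900 protein-coding genes, 10787 had such a peak in the WT line, a larger share than of the pigment cell genes. These counts therefore cannot decide the cell type.

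Promoters of 6 genes carry the findings described below, and their sequences are given first. Each run is 5′ to 3′ on the strand of the gene, with every CpG in capitals. The runs cover 250 bases before and 50 after the annotated start in the RefSeq table of GRCm38.p6, the assembly of mm10. Mtap was chosen as the gene-end region of highest WT enrichment. Mgst1, Akr1c18, Cavin4 and Pdpn were chosen as CpG-poor or intermediate promoters under strong regions, and Ppp1r3d as the most CpG-rich promoter among the 20 strongest genes named below.
Mtap: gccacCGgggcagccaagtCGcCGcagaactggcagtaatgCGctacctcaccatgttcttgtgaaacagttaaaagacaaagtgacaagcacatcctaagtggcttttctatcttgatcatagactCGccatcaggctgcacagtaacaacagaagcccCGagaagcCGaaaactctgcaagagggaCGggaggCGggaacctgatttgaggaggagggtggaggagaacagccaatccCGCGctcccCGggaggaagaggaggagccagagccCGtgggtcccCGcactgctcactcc
Mgst1: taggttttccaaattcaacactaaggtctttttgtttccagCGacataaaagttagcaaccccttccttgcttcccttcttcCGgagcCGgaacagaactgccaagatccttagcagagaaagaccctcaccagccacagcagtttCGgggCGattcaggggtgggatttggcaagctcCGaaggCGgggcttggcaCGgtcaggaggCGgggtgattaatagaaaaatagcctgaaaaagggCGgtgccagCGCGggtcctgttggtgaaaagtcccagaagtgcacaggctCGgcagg
Akr1c18: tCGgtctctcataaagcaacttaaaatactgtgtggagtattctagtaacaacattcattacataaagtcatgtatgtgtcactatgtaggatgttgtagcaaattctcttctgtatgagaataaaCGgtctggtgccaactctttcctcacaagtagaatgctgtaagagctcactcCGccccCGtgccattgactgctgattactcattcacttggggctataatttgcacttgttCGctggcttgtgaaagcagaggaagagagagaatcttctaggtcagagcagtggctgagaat
Cavin4: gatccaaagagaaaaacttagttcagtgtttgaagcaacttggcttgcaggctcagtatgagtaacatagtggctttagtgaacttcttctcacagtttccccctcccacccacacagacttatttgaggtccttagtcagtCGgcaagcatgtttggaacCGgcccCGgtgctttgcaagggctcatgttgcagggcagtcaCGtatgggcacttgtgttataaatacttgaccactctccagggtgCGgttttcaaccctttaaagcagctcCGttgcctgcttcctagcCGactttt
Pdpn: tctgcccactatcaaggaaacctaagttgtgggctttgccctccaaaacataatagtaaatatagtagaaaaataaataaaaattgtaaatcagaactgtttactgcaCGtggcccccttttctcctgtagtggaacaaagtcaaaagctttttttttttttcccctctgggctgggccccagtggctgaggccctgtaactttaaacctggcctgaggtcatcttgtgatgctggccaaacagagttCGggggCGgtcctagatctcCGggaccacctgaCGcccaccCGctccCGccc
Ppp1r3d: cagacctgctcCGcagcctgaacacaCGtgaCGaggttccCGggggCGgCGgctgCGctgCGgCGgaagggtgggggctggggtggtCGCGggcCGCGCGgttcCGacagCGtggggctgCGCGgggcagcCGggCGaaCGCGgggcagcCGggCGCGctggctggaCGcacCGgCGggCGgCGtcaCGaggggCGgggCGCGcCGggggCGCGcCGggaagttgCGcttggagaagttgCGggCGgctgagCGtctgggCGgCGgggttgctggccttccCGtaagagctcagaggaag
The Mtap run lies at chr4:89137120-89137419 on the plus strand, and Mgst1 at chr6:138140277-138140576 on the plus strand. Akr1c18 lies at chr13:4150597-4150896 on the minus strand, Cavin4 at chr4:48663264-48663563 on the plus strand, Pdpn at chr4:143299515-143299814 on the minus strand and Ppp1r3d at chr2:178414414-178414713 on the minus strand. They hold 14 CpG (Mtap), 13 (Mgst1), 5 (Akr1c18), 7 (Cavin4), 7 (Pdpn) and 45 (Ppp1r3d).

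The regions were mostly weak peaks. The rule used the H3K4me3 lists of both lines, so strength, width and distance to mutant H3K4me3 are a description only. The authors' fold enrichment, the pileup at a peak's summit over its background, had a median of 4.08 in WT-only regions and 12.5 in shared peaks, with maxima of 33.2 and 144. The median width was 382 bp in WT-only regions and 1425 bp in shared peaks. The values in the lists allowed the number of fragments at a summit to be recovered, and its median was 9 in WT-only regions and 34 in shared peaks. A typical member therefore rested on few fragments. The mutant H3K4me3 library was 2.11 times as deep as the WT library by the same reconstruction, and its weakest called summit held 8 fragments, against 5 in the WT list.

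The share of WT peaks that were WT-only fell steeply with strength. It was 63.2% at a fold enrichment up to 3, 48.4% between 3 and 4, 30.5% between 4 and 5 and 15.6% between 5 and 6. It was 6.34% between 6 and 8, 1.84% between 8 and 10, 0.732% between 10 and 15 and 0.0874% above 20, where 2 of 2288 peaks were WT-only. In all, 56 members reached a fold enrichment of 8.

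**Figure D1:**
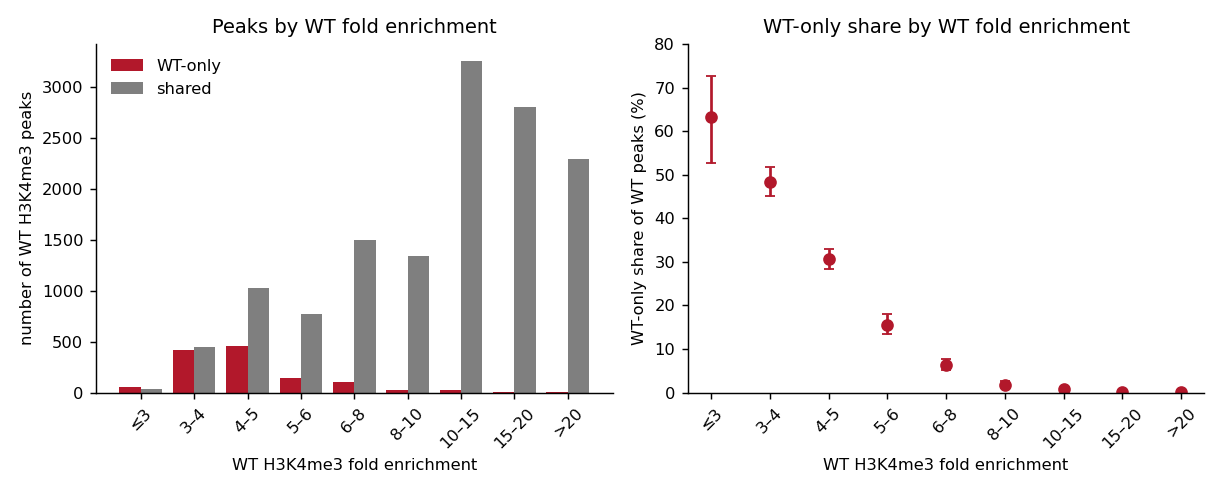
Left, number of WT H3K4me3 peaks in classes of WT fold enrichment (authors' value), WT-only in red and shared in grey. Right, WT-only share of the WT peaks in each class in percent with 95% Wilson intervals: 63.2% in the weakest class and 0.0874% in the strongest.

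Many regions lay beside mutant H3K4me3 rather than far away. The gap to the nearest mutant H3K4me3 peak was at most 1 kb for 340 regions (27.8%), over 1 to 5 kb for 197 (16.1%), over 5 to 50 kb for 420 (34.3%) and over 50 kb for 267 (21.8%). The median gap was 7911 bp, and 3 regions touched a mutant peak without sharing a base. Just inside the rule, 30 regions with a gap of at most 50 bp had a median fold enrichment of 4.28 and a median width of 325 bp. Just outside it, 31 shared peaks that overlapped a mutant peak by at most 50 bp had medians of 4.19 and 295 bp.

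WT-only regions lay mainly away from gene ends, though most lay inside a gene. Within 1 kb of an end of a protein-coding gene, 198 of 10358 WT peaks were WT-only (1.91%, 1.67–2.19%). The share was 17.6% (262 of 1488) between 1 and 5 kb and 27.1% (763 of 2816; 25.5–28.8%) beyond 5 kb. Thus 62.3% of the WT-only regions and 15.3% of the shared peaks were distal, and 16.2% and 75.6% were at a gene end. Distal members were 26986 bp from the nearest gene end at the median, and 467 of the 763 (61.2%) lay inside a gene, against 60.3% of distal shared peaks. Inside a gene were also 211 of the 262 regions between 1 and 5 kb. At a gene end, 134 of the 198 regions overlapped a gene by at least 1 bp, including regions that spanned the end.

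Starts listed in the RefSeq promoter table were less frequent among the regions within each location class. That table covered 17492 of the 21900 protein-coding genes, so starts of the remaining genes were not counted. Of gene-end members, 128 of 198 (64.6%) lay within 1 kb of a start in the RefSeq promoter table, against 79.1% of gene-end shared peaks. Of distal members, 59 (7.73%) did so, against 26.6% of distal shared peaks, and 68 (8.91%) lay within 1 kb of an end of a long non-coding RNA gene, against 18.7%. WT-only regions were narrower and weaker than shared peaks at the median, and neither width nor strength was matched in these comparisons. Among chromosomes, the WT-only share was highest on chromosome 18 at 10.5% (7.92–13.8%) and lowest on chromosome 19 at 5.56% (3.87–7.91%), with the others between 6.14% and 10.1%.

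At promoters, WT-only regions sat on CpG-poor sequence. The promoter table gave 97 promoters of 89 genes that overlapped a WT-only region and no shared peak. Their median ratio of observed to expected CpG was 0.41 (quartiles 0.27 and 0.64). It was 0.80 (0.66 and 0.93) in 9389 promoters under shared peaks and 0.22 (0.11 and 0.40) in 10065 promoters without H3K4me3 in either line. A ratio of at least 0.6 was found in 30.9% of WT-only promoters (22.6–40.7%), 81.6% of shared promoters and 12.04% of promoters without a peak.

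The difference was also present among weak peaks. At a fold enrichment of at most 6.88, the medians were 0.45 in 73 WT-only promoters and 0.75 in 955 shared promoters. The ratio was 0.58 in the Mtap run printed above, 0.61 in Mgst1, 0.37 in Akr1c18, 0.40 in Cavin4 and 0.40 in Pdpn. Another listed Mgst1 promoter under the same region, not printed, had a ratio of 0.073 with 1 CpG. Other strong regions lay on CpG-rich promoters, with ratios of 1.09 in Ppp1r3d, 1.03 in its neighbour Fam217b, 0.93 in 1700037H04Rik and 0.79 in Slco4a1. Slitrk1 had a ratio of 0.67 with 9 CpG.

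**Figure D2:**
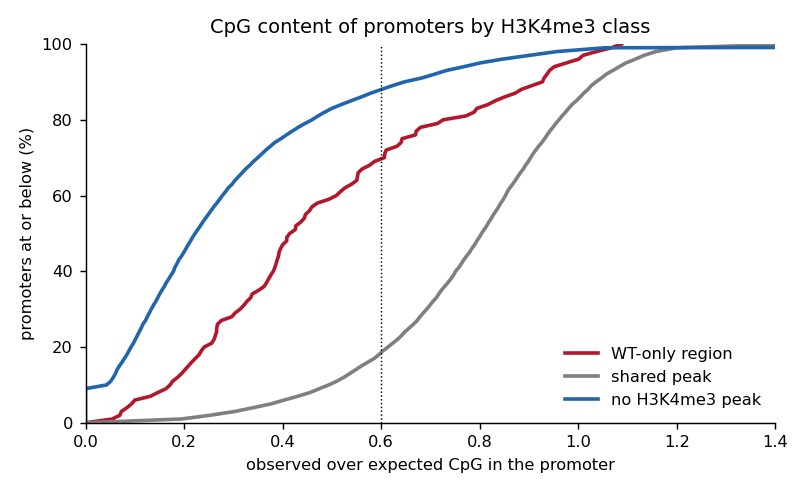
Cumulative share of promoters (vertical axis, percent) at or below each ratio of observed to expected CpG (horizontal axis) for promoters under WT-only regions (n = 97), under shared peaks (n = 9389) and without H3K4me3 in either line (n = 10065). The dotted line marks 0.6; the WT-only curve lies between the other curves, with a median of 0.41.

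Short motifs were counted in the same windows on both strands. The AP-1 motif TGANTCA was present in 9.28% of WT-only promoters (9 of 97; 4.96–16.7%), 3.93% of shared promoters, 10.0% of promoters without H3K4me3 and 6.99% of all promoters in the table. The TFAP2 motif GCCNNNGGC was present in 20.6% of WT-only promoters (13.8–29.7%), 26.6% of shared, 12.2% of those without H3K4me3 and 19.9% of all. The E-box CACGTG was found in 7.22%, 10.1%, 5.14% and 7.84% of the same groups, and the TEAD motif GGAATG in 13.4%, 10.7%, 16.6% and 13.6%. The 4 motifs do not contain each other, although their occurrences can overlap. For all 4 motifs the share over all promoters lay within the interval of the WT-only share, and for AP-1 the share of shared promoters lay below that interval, whereas that of promoters without H3K4me3 lay inside it. For TFAP2 the share of promoters without H3K4me3 lay below the interval.

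The WT-only regions carried fewer mutant Menin and TFAP2 peaks than shared peaks of like strength. For this, shared peaks were reweighted to the regions' mix of strength (10 classes of fold enrichment in the WT list) and location. A mutant Menin peak lay on 20.2% of WT-only regions (18.0–22.5%) and on 71.1% of shared peaks, or 41.7% after reweighting, a difference of −21.5 points (−25.0 to −18.0). For mutant TFAP2A the share was 16.2% in WT-only regions and 31.3% in reweighted shared peaks, a difference of −15.1 points (−18.4 to −11.8). For mutant TFAP2B it was 7.19% and 16.0%, a difference of −8.78 points (−11.2 to −6.31). With peaks of a −log10 q under 5 left out, the differences were −36.9 points for Menin and −24.2 points for TFAP2A.

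The larger remodeller lists and the UTX list of the mutant line differed less over all regions. Mutant ARID1A peaks lay on 27.5% of WT-only regions and 27.4% of reweighted shared peaks, a difference of 0.11 points (−3.38 to 3.59). That difference was −11.6 points (−17.4 to −5.88) with peaks of a −log10 q under 5 left out, and 4.66 points (0.75 to 8.57) with no mutant H3K4me3 peak allowed within 1 kb. Mutant UTX peaks lay on 10.1% and 11.6% (difference −1.47 points, −3.90 to 0.96), and mutant SMARCC1 peaks on 3.10% and 1.92% (1.19 points, −0.03 to 2.42). SOX10 was profiled with a different antibody in each of 2 mutant libraries, titled T and U, and what the letters stand for is not given in the sources used here. SOX10 U lay on 5.39% and 7.39% (−2.00 points, −3.90 to −0.09), and SOX10 T on 0.735% and 1.72% (−0.99 points, −1.84 to −0.13). Any of the 11 other mutant lists had a peak on 528 regions (43.1%, 40.4–45.9%), against 61.5% of reweighted shared peaks.

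In the WT line the direction differed. WT SMARCC1 peaks lay on 18.2% of WT-only regions (16.2–20.5%) and on 3.72% of shared peaks, or 8.03% after reweighting, a difference of 10.2 points (7.58 to 12.8). WT ARID1A peaks lay on 32.03% of WT-only regions and 23.9% of shared peaks, with a difference of 10.05 points (6.60 to 13.5) after reweighting. WT UTX lay on 21.1% of WT-only regions and 14.7% of reweighted shared peaks (6.37 points, 3.37 to 9.36), and WT KMT2D on 13.6% and 10.7% (2.86 points, 0.31 to 5.41). WT Menin was the most frequent target, on 465 regions (37.99%), against 32.4% of reweighted shared peaks (5.63 points, 1.90 to 9.35). When peaks with a −log10 q under 5 were left out, the difference was 3.34 points (−0.90 to 7.59) for WT SMARCC1 and 2.88 points (−3.43 to 9.19) for WT ARID1A, so that both intervals then included 0. The Menin difference turned to −2.07 points (−9.35 to 5.22) in that setting. WT TFAP2A lay on 17.6% and 19.5% (−1.96 points, −4.99 to 1.08).

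PBAF and non-canonical BAF subunits had few peaks on the regions, and few on shared peaks of like strength and location. PBRM1 lay on 0 of 1224 regions in both lines, which allows a share of up to 0.245% (3 counts of the total). The share of shared peaks was 2.66% in the mutant line and 2.37% in the WT line, but after reweighting it was 0.426% (difference −0.43 points, −0.78 to −0.07) and 0.243% (−0.24 points, −0.51 to 0.03). BRD9 lay on 0 regions in the mutant line and 1 in the WT line, against 0.0116% and 0.0388% of reweighted shared peaks. ARID2 lay on 3 regions (0.245%) in the mutant line, against 0.532% of reweighted shared peaks (−0.29 points, −0.77 to 0.20). In the WT line it lay on 14 regions (1.14%), against 1.10% (0.05 points, −0.77 to 0.87). These lists were short, with 431 mutant and 343 WT peaks for PBRM1.

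**Figure D3:**
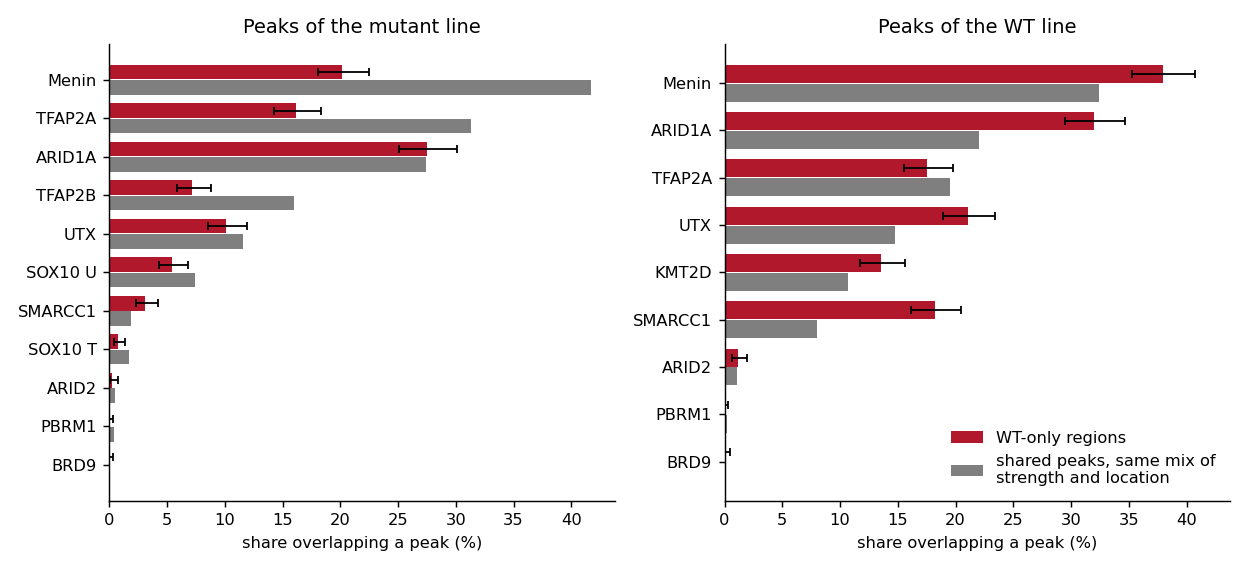
Share of WT-only H3K4me3 regions (red, with 95% Wilson intervals) and of shared peaks reweighted to the same mix of strength and location (grey) that overlap a peak of each other target, in percent, with mutant lists on the left and WT lists on the right. Mutant Menin lay on 20.2% of WT-only regions and 41.7% of reweighted shared peaks; WT SMARCC1 on 18.2% and 8.03%.

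Location split the targets further. Mutant ARID1A lay on 34.9% of distal, 14.9% of near (1 to 5 kb) and 16.2% of gene-end regions, and WT ARID1A on 40.0%, 17.6% and 20.7% of them. WT SMARCC1 lay on 23.3% of distal and 9.09% of gene-end regions, and WT KMT2D on 17.3% and 10.1%. In shared peaks WT SMARCC1 was also more frequent at distal (8.18%) than at gene-end peaks (2.80%), whereas WT KMT2D lay on 13.5% and 16.1%. WT Menin also lay more often on distal (42.9%) than on gene-end regions (27.3%), whereas in shared peaks it lay on 54.1% of distal and 62.1% of gene-end peaks. The 267 regions more than 50 kb from mutant H3K4me3 carried mutant Menin in 12.4% and WT Menin in 29.2%, and the 340 regions within 1 kb carried them in 25.3% and 37.4%.

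The regions divided by whether another WT library also had a peak there. Of 719 regions with at least 1 other WT target, 474 (65.9%, 62.4–69.3%) also had a peak of at least 1 mutant list. Of 505 regions with no other WT target, 54 (10.7%, 8.29–13.7%) did. In 451 regions H3K4me3 of the WT line was the only peak of all 22 lists. The median fold enrichment was about the same in both classes, 4.12 with another WT target and 4.08 without.

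WT Menin peaks at WT-only regions had a mutant Menin peak less often than those at shared H3K4me3. Of 473 WT Menin peaks that overlapped a WT-only region, 220 (46.5%, 42.1–51.0%) overlapped a mutant Menin peak. The share was 84.0% at shared H3K4me3 peaks reweighted to the same location mix and 40.9% for Menin peaks away from WT H3K4me3. The difference between the H3K4me3 classes was −37.5 points (−42.2 to −32.8).

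Without regions in stretches of at least 20 kb that held no mutant peak of any list, the difference was −25.3 points (−30.6 to −20.1).

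The other factors differed less. WT TFAP2A peaks were kept in 76.1% (162 of 213) at WT-only regions and 92.6% at shared peaks, a difference of −16.5 points (−22.4 to −10.6). WT UTX peaks were kept in 52.2% and 58.9% (−6.76 points, −14.1 to 0.53) and WT ARID1A peaks in 82.1% and 84.8% (−2.74 points, −7.19 to 1.71). Without the stretches that held no mutant peak, the differences were −6.09 points (−11.2 to −0.96) for TFAP2A, −2.30 (−9.77 to 5.18) for UTX and 4.38 (0.40 to 8.36) for ARID1A, which changed sign. With reweighting on the strength of the target peak as well, UTX differed by −9.98 points (−17.3 to −2.63) and ARID1A by −8.21 points (−12.6 to −3.80). WT SMARCC1 peaks were kept in 21.3% and 17.8% (3.56 points, −3.51 to 10.6), low in both places, and the mutant SMARCC1 list held 2910 peaks against 11507 in the WT list.

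**Figure D4:**
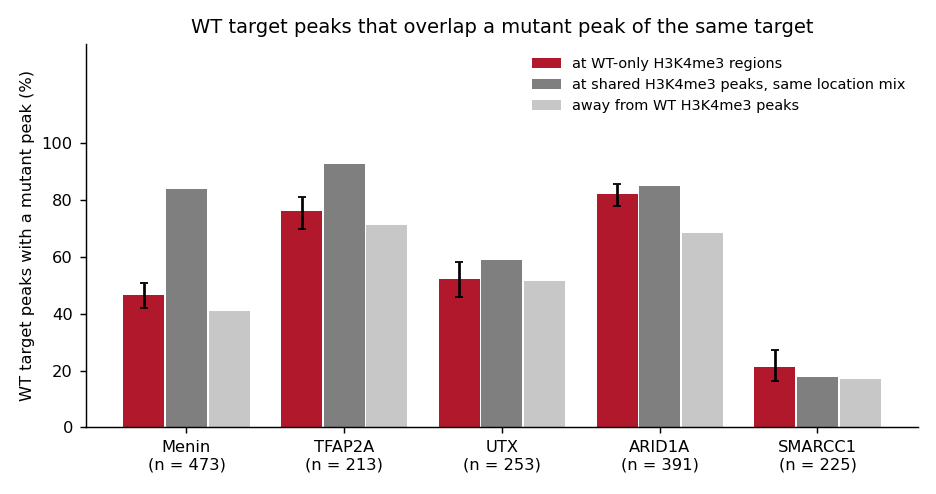
Share of WT peaks of each target that overlap a mutant peak of the same target, in percent, at WT-only H3K4me3 regions (red, 95% Wilson intervals, n under each name), at shared H3K4me3 peaks reweighted to the same location mix (dark grey) and away from WT H3K4me3 (light grey). Menin shows 46.5%, 84.0% and 40.9%.

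KMT2D of the WT line had a peak at 166 of the regions, and 152 of them (91.6%) had a mutant peak of some other target, against 99.1% of the shared peaks with KMT2D. In the mutant line, 84 of the 166 had UTX (50.6%, 43.1–58.1%), 140 had ARID1A (84.3%), 97 had TFAP2A (58.4%) and 50 had Menin (30.1%). In the WT line, 150 had UTX (90.4%), 155 had ARID1A (93.4%), 99 had TFAP2A (59.6%) and 88 had Menin (53.0%). WT SMARCC1 lay on 110 of them (66.3%). At the 2075 shared peaks with KMT2D, not reweighted, mutant Menin lay on 87.3%, mutant TFAP2A on 88.2%, mutant ARID1A on 83.5% and mutant UTX on 53.4%, and in the WT line Menin lay on 83.2%, UTX on 81.9%, TFAP2A on 78.2%, ARID1A on 75.3% and SMARCC1 on 13.2%.

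The strongest KMT2D-bound region lay on chromosome 18 at 61663313 to 61665837, within 1 kb of an end of Carmn, a long non-coding RNA of smooth muscle and heart. Its H3K4me3 fold enrichment was 15.3 from 36 fragments, KMT2D and UTX were its other WT peaks, and it had no mutant peak. The next covered an end of Dmpk, the kinase gene of myotonic dystrophy (chromosome 7, 19083412 to 19086128, fold enrichment 12.9). There, 5 mutant targets and 6 other WT targets had peaks, and of the targets listed in both lines H3K4me3 and Menin had a WT peak without a mutant one. A region 11489 bp from an end of Cxcr5, which encodes a chemokine receptor, had 10.1 and lay 289 bp from a mutant H3K4me3 peak. A region 93993 bp from Ogfrl1 had peaks of no mutant list and of 6 other WT targets, at a fold enrichment of 6.88. The region with most other libraries lay 5059 bp from Eef1g, a translation elongation factor gene, with 7 mutant and 7 other WT targets at a fold enrichment of 4.48.

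Genes with WT-only H3K4me3 were few. Of 21900 protein-coding genes, 209 (0.954%) had a WT-only region within 1 kb of an end, and 117 of these also had a mutant H3K4me3 peak at an end. The 209 became 49 with peaks of a −log10 q under 5 left out and 106 with no mutant H3K4me3 peak allowed within 1 kb. The count was 439 when a peak counted as shared only with 50% of it covered by mutant peaks, and 359 with a gene end of 2.5 kb. A stricter group of 76 genes had no mutant H3K4me3 peak within 5 kb of the gene. In 50 of the 76 the region lay at a start in the promoter table, which covered 17492 of the 21900 genes. Genes absent from that table, Acvrl1 among them, could not be counted as such. No mutant peak of any of the 12 lists lay within 5 kb in 43 of the 76. The median fold enrichment over the 76 was 4.88.

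Mtap, which encodes the methylthioadenosine phosphorylase of methionine salvage, led by a wide margin. Its region spanned 4283 bp over the gene start (chromosome 4, 89136663 to 89140945) with a fold enrichment of 33.2 from 81 fragments. No mutant peak of any list lay within 5 kb of the gene, and WT Menin and TFAP2A lay on the region. Next came 1700037H04Rik with 14.5 (34 fragments; chromosome 2, 131159367 to 131161034), also without any mutant peak within 5 kb, and Acvrl1, a type I receptor of the TGF-beta and BMP family known from endothelium, with 13.2 (33 fragments; chromosome 15, 101128701 to 101130010). No other target of either line had a peak on the Acvrl1 region.

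Akr1c18, Cavin4 and Mgst1 had 10.9 each, from 25 fragments. Mgst1, a microsomal glutathione transferase, had a region of 1790 bp over its start (chromosome 6, 138140079 to 138141868). No mutant peak lay within 5 kb of the gene, no other WT list had a peak on the region, and the nearest mutant H3K4me3 peak was 384647 bp away. Akr1c18 encodes the aldo-keto reductase that inactivates progesterone in the mouse, and its region (chromosome 13, 4148299 to 4150909) carried mutant Menin and ARID1A without H3K4me3. In the WT line UTX, SMARCC1 and ARID1A lay there. Cavin4, which encodes a caveolar protein of muscle, had a region (chromosome 4, 48663494 to 48666297) with mutant UTX, ARID1A, TFAP2A and SOX10 U and WT KMT2D, UTX, Menin and ARID1A.

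A bidirectional promoter followed. Ppp1r3d, a glycogen-targeting subunit of protein phosphatase 1, and its neighbour Fam217b shared a region at 10.5 (chromosome 2, 178414069 to 178415362) where the mutant line had TFAP2A only. Slitrk1, a neuronal transmembrane protein gene, had 10.1, with no peak of any mutant list within 5 kb. Pdpn, which encodes the membrane glycoprotein podoplanin, had 8.07 over 2758 bp, and so did Zfp947, a zinc finger gene, over 766 bp. Neither had any mutant peak within 5 kb, and neither region held another WT target.

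The rest of the 20 strongest genes had values from 6.44 to 9.98. Fgd3, an exchange factor gene for Cdc42, had 9.98 and 11 mutant peaks within 5 kb of the gene, none of them H3K4me3 or Menin. Acot9, an acyl-CoA thioesterase gene on the X chromosome, had 7.28 with mutant UTX, Menin and ARID1A and WT KMT2D, SMARCC1 and ARID1A. Gldn (6.88), Sh3bgrl2 (6.81), Miga1, Psma8 and Slco4a1 (6.48 each), and Asb4 and Pbxip1 (6.44 each) completed the list. Of the 20, 10 had no mutant peak of any list within 5 kb.

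The gene lists gave small counts. Within 5 kb, 931 of 21900 genes (4.25%) had a WT-only region, and the lists are read against that share as a description. Glutathione and drug-metabolism enzymes had 6 of 20 (Mgst1, Mgst3, Gsta4, Por, Cyp1b1 and Akr1c18), of which 3 had no mutant H3K4me3 within 5 kb. By strength, Por, the electron donor of cytochrome P450 enzymes, had 9.67, Cyp1b1 had 6.08 and both Mgst3 and Gsta4 had 4.08. The Cyp1b1 region lay 57 bp from a mutant peak. Mgst1 and Akr1c18 are also among the strongest genes named above.

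Mesenchymal and dedifferentiated state genes had 5 of 20. The regions of Tead1 (5.68), Zeb2 (5.28), Cdh2 (4.88) and Tgfbi (3.28) lay at genes that also had mutant H3K4me3 within 5 kb. Glycolysis genes had 4 of 20, Eno1 (6.40), Eno2 (5.28), Aldoa (5.12) and Hk1 (4.88), and all lay within 1039 bp of a mutant H3K4me3 peak. SWI/SNF genes had 3 of 24, with Arid1b at 8.07, Smarcd1 at 4.08 and Bcl7c at 3.68.

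TGF-beta and BMP receptors had 2 of 13 (Acvrl1 at 13.2 and Acvr1 at 4.48) and genes of the Cdkn2a region 2 of 12 (Mtap and Mllt3, at 33.2 and 4.08). Methionine salvage and polyamine genes had 1 of 12, which was Mtap again. Pigment cell genes had 1 of 22, a region of 3.28 in Pax3 that lay 195 bp from a mutant peak. Interferon and antigen presentation genes had 1 of 14 (H2-D1, 5.49). COMPASS genes had 0 of 17 and ribosomal protein genes 0 of 20. Among markers of other cell types, fibroblast markers had 1 of 10 (Col3a1, 2.88), blood cell markers 1 of 8 (Cd68, 6.08), muscle markers 1 of 10 (Cavin4), keratinocyte markers 0 of 12 and endothelial markers 0 of 10. Lists of this size differ by a few genes, and no list was tested.

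Distal regions reached high values as well. The strongest lay inside Ston1, an endocytic adaptor gene, with 18.9 over 3825 bp (chromosome 17, 88626527 to 88630351), where mutant ARID1A and WT Menin and ARID1A had peaks. The widest member, at 7795 bp, lay inside Nkain2, which encodes a partner of the sodium pump (chromosome 10, 32883153 to 32890947, 16.9). It carried no mutant peak and WT Menin and TFAP2A, and the nearest mutant H3K4me3 peak was 1013993 bp away.

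Regions in Dab2ip, a Ras GTPase-activating protein gene, and Ank3, the ankyrin-G gene, had 14.1 each, Cep85, a centrosomal protein gene, 12.5 and Stard13 11.7. None of these 4 regions overlapped a peak of any mutant list. Within 5 kb, however, the Dab2ip region had 4 mutant peaks and the Stard13 region 5, against 0 for Ank3 and Cep85. WT Menin lay on the Ank3, Cep85 and Stard13 regions, and WT ARID1A and TFAP2A lay on the Dab2ip region. Over the 30 strongest members of any location, 18 had no mutant peak on the region, 2 had mutant Menin and 16 had WT Menin. Over all 1224 regions, 696 had no mutant peak on the region, 247 had mutant Menin and 465 had WT Menin. The share without a mutant peak on the region was thus about the same among the strongest. Some of the 18 had mutant peaks within 5 kb, as the Dab2ip and Stard13 regions did, and others, such as Ank3 and Cep85, had none.

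WT-only regions were neighbours more often than WT peaks in general. The next WT H3K4me3 peak along the chromosome was WT-only for 207 of 1220 regions (17.0%, 14.97–19.2%), against 8.33% of all WT peaks. With peaks of a −log10 q under 5 left out it was 8.53%, when 1.82% of the remaining WT peaks were WT-only. Most regions were still single, 863 stood alone between shared peaks, 116 runs held 2 and 30 runs held 3. Longer runs were 6 of 4 regions, 1 of 5 and 1 of 10. The run of 10 lay on chromosome 4 and included the clusters at Mtap and near Ifne described below. Chained at gaps of at most 50 kb with no mutant H3K4me3 between them, 75 regions (6.13%) formed 23 clusters of at least 3, with a median span of 7394 bp. In 9 of the 23, no mutant list had a peak. All 23 clusters needed weak regions: with WT peaks of a −log10 q under 5 left out, 0 regions formed a cluster.

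The cluster with most regions lay at the start of Mtap. Its 5 regions spanned 17580 bp, at fold enrichments of 4.08, 9.64, 3.68, 33.2 and 4.22 in order along the chromosome, with no mutant peak, 7 WT Menin peaks and 1 WT TFAP2A peak. A cluster of 4 lay 95263 bp from Thy1 on chromosome 9 at 43944584 to 43948121, with 4.08, 8.87, 14.1 and 3.68. On the region of 8.87 the mutant line had UTX, SMARCC1, ARID1A and SOX10 U, and the WT line had KMT2D, UTX, SMARCC1, ARID1A and TFAP2A.

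The other large clusters differed in their mutant peaks. Inside Zmynd8, a chromatin reader gene, 3 regions lay 1090 bp from mutant H3K4me3 and held no mutant peak and 3 WT Menin peaks. Inside Inava, 3 regions lay 944 bp from mutant H3K4me3 and held no mutant peak, 1 WT Menin peak and 1 WT ARID1A peak. Inside Ctnnd1, the p120 catenin gene, 4 regions with fold enrichments between 3.68 and 6.08 held 12 mutant peaks of other targets, among them 3 of SOX10 U and 2 of SOX10 T. Inside Plekha5, 4 regions spread over 42884 bp held 16 mutant and 21 other WT peaks, and the 4 regions 196585 bp from Spdye4c held 8 and 8. A final cluster of 3, with a maximum of 16.5, lay 70647 bp from the interferon gene Ifne. It belonged to the same run as the Mtap cluster, from which gaps of more than 50 kb set it apart.

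WT-only regions often lay where the mutant line had no peak at all. Of the 1224 regions, 432 (35.3%, 32.7–38.01%) fell in stretches of at least 20 kb without a peak of any mutant list. The same share was 19.9% of WT ARID1A, 19.4% of WT SMARCC1, 10.0% of WT UTX, 7.19% of WT TFAP2A, 5.81% of WT KMT2D and 4.48% of WT Menin peaks. These lists were not chosen by loss, so the comparison with the members is a description.

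The stretch with most regions spanned 400 kb on chromosome 4 (88951385 to 89351015) and held 8 WT-only regions and 55 other WT peaks. These were 22 Menin, 13 ARID1A, 5 UTX, 5 SMARCC1, 5 ARID2, 3 KMT2D and 2 TFAP2A peaks. The 8 regions had fold enrichments of 16.5, 8.87, 14.3, 4.08, 9.64, 3.68, 33.2 and 4.22 along the chromosome. The region at 14.3 lay at an end of the long non-coding RNA gene Wincr1 and carried WT UTX, Menin, SMARCC1, ARID1A and ARID2. All WT peaks of the stretch lay in its first 195 kb. No WT list had a peak between there and 564 kb, an interval that includes Cdkn2a and Cdkn2b, which encode cell cycle inhibitors. Peaks of the mutant line resumed at the end of the stretch, and to its left both lines had H3K4me3. Peak lists do not measure DNA copy number, which was not tested. The next stretches held 3 regions each, on chromosome 9 (38392 bp, 9 other WT peaks) and within Map4k4 on chromosome 1 (31308 bp, 6 other WT peaks).

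**Figure D5:**
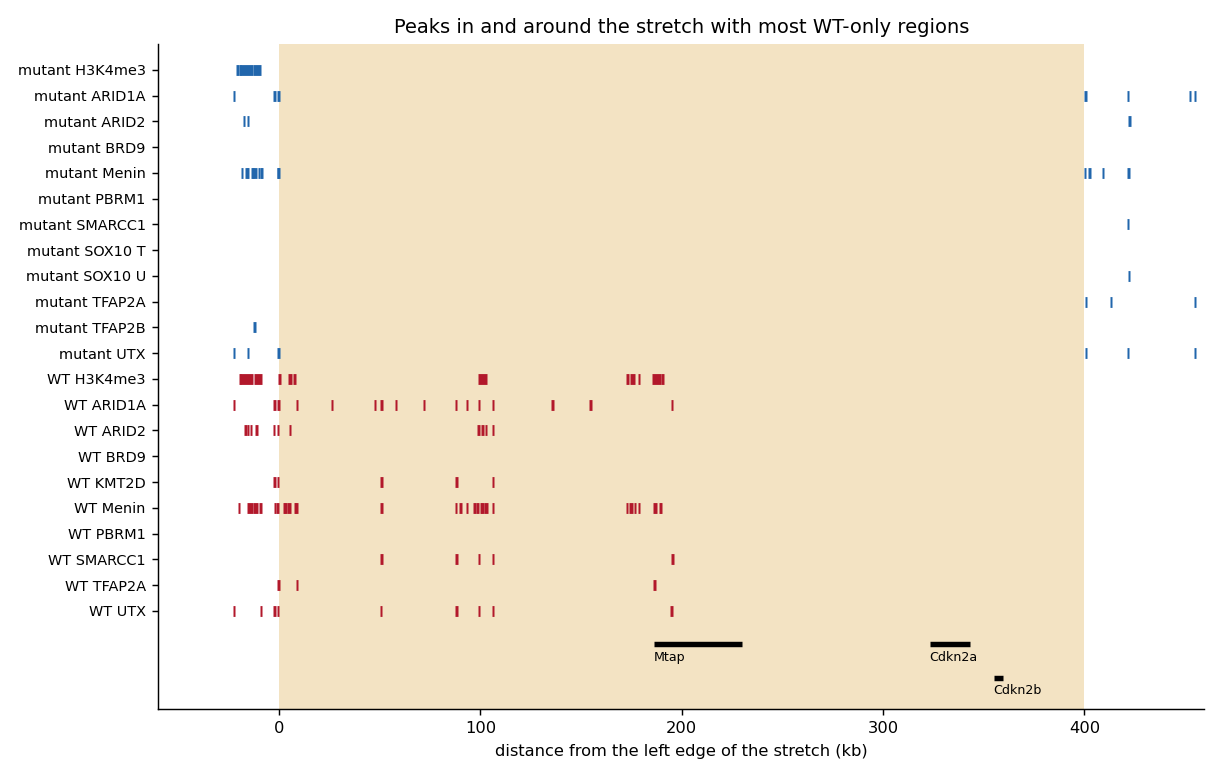
Peaks of the 12 mutant lists (blue, above) and the 10 WT lists (red, below) across the stretch without mutant peaks (shaded) and its flanks, with protein-coding genes at the bottom; the horizontal axis is the distance in kb from the left edge of the stretch. WT peaks fill the first 195 kb, including the Mtap start, and none lies over Cdkn2a or Cdkn2b in either line.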

How the data were processed

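CUT&RUN peak lists of 2 mouse melanoma lines on mm10 were used, 12 mutant and 10 WT, with 1 library per target. Per the submitters' processing notes, Bowtie2, MACS2, FastQC and MultiQC were used upstream; for versions, thresholds and the caller's control nothing is given in the sources used here. Every deposited peak has a score, a fold enrichment (the authors' ratio of summit to background), a −log10 p and a −log10 q. Peaks called at another depth would give another set of regions.

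Overlap needed 1 bp. Genes were 21900 protein-coding RefSeq genes of GRCm38.p6. Summit fragments and background were recovered from the deposited fold enrichment and −log10 p. Reweighting used 10 classes of fold enrichment by location, narrower towards strong peaks after a check on simulated data, and gave no weight to shared peaks stronger than any member. A stretch is a run of at least 20 kb without any mutant peak. Named genes were the 20 strongest gene-end genes without mutant H3K4me3 within 5 kb, members of 16 lists (243 genes) within 5 kb, genes of the 8 largest clusters, and the 10 strongest distal, most occupied and KMT2D-bound regions, given in part; 1 list member is not reported here. Members and lists were chosen with earlier results of these data known. Depth, overlap and reweighting steps were tested on simulated data. Scripts ran in Python 3.11.15 with SciPy 1.17.1, pandas 2.3.3, NumPy 2.4.6 and, for plots, Matplotlib 3.10.9.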

Additional observations from a re-analysis of the deposited data

How the results depend on the processing

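Of 80 alternative values for 22 results, 52 stayed within the interval of the value given (within 1.5 times for counts, within the quartiles for the CpG ratio). Another 27 moved and 1 was reversed, a change of sign where the interval of the value given held only 1 sign. Changes of sign where that interval held both signs, as for ARID1A, are counted in the other classes. Some values could not change: no cluster lay on chromosomes 18 and 19, whose shares were recomputed without clusters. A gene end of 2.5 kb likewise left the distal class as it was. Alternatives for the CpG ratio, for the list counts and for retention by strength were chosen after seeing the data. The cause of each move was not tested unless the setting itself shows it.

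With only WT peaks of −log10 q of at least 5, the WT-only share was 1.82% (214 of 11733 peaks), genes with a region numbered 49, list members 11, regions in clusters 0 and the next-peak share 8.53%. The differences in that setting were −36.9 points for mutant Menin, −24.2 for mutant TFAP2A and −11.6 for mutant ARID1A. For WT targets they were 3.34 for SMARCC1, 2.88 for ARID1A and −2.07 for Menin, the last being the reversed value. With no mutant peak allowed within 1 kb, the share was 6.03%, the genes 106, and the differences 13.4 points for WT SMARCC1, 13.9 for WT ARID1A and 4.66 for mutant ARID1A. Calling a peak shared only when mutant peaks covered 50% of it gave 11.8%, 439 genes, a next-peak share of 19.8% and −17.7 points for mutant Menin. Thinning the mutant list to the WT depth left 15683 mutant peaks and gave 9.52% (1396 regions). A gene end of 2.5 kb gave 2.84% at gene ends and 359 genes, and stretches of at least 50 kb held 22.7% of regions. Without regions in mutant-free stretches, retention differed by −25.3 points for Menin, −6.09 for TFAP2A and 4.38 for ARID1A; reweighting on the target's own strength gave −8.21 for ARID1A. Reweighting on peak width as well moved no target difference out of its interval.

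No paired analysis was possible because every line and target had 1 library. The few fragments under most regions limit the precision, and mutant signal under the caller's threshold is not in the lists. Leaving out a replicate was not possible for the same reason as pairing.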
